A study of Sus scrofa with 12 samples.

Results

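The interstitial matrix genes described here are 52 of the 20390 protein-coding genes in a table of uterine RNA from newborn gilts. They were taken by the symbol the table gives: collagens other than types IV, XV and XVIII, the LOX, MFAP, EMILIN, FBLN, LTBP, THBS and ADAMTS families, and single genes such as FN1, SPARC, DCN and VCAN. A further 34 entries of the table stand under placeholder symbols or variant spellings, and an NCBI gene table of a later pig assembly (Sscrofa11.1), matched by gene number and used for names only, calls them genes of the same families. Elastin (ELN), COL3A1, LUM, FMOD, TNXB and the LTBP genes are known here only through those entries, which are therefore described beside the 52 and counted apart. All 86 entries exceeded the low-value limit and were tested. An entry for COL1A1 was not analysed here.

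Uterine RNA was sequenced from 12 crossbred gilts (Landrace, Yorkshire, Duroc and Hampshire stock), 1 library per animal and 4 animals in each of 3 groups. PND0 gilts had not nursed and were killed within 1 h of birth. PND2N gilts nursed at will for 48 h, PND2R gilts were fed a commercial milk replacer for 48 h, and both were killed at 50 h of age. The uteri had been trimmed of connective tissue before RNA was isolated, so the matrix RNA described is that of the uterine wall that was left. The labels name no litter, and whole uterine tissue does not allow fewer cells of a type to be told apart from less RNA per cell.

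The matrix between the cells of the uterine wall is laid down mainly by stromal fibroblasts and smooth muscle. Fibrillar collagens give it tensile strength, and collagen VI, the fibril-associated collagens and small leucine-rich proteoglycans tie fibrils together and set their spacing. Elastic fibres consist of a cross-linked elastin core on a scaffold of fibrillin microfibrils, to which fibulins, EMILINs and microfibril-associated proteins attach. Latent TGF beta binding proteins (LTBPs) store the growth factor TGF beta on that scaffold, lysyl oxidases cross-link collagen and elastin, and ADAMTS proteases trim procollagen, proteoglycans and microfibrils. In the pig, the uterine glands develop after birth.

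The values are the submitters' normalized values on a linear scale, with 1 as the lowest, and changes are log2 changes of (value + 1) ± SE, a scale that understates the change of low genes. Between 17.8% and 22.1% of genes were at 1 in a library, and since reads per gene were not recovered from the values, the depth behind them is unknown. Between 1.42% and 2.74% of the sum of values in a library came from the 52 genes. The levels are not scaled to gene length, and no level is compared between genes.

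The libraries of a group were not alike, in ways that touch many of the matrix genes. PND0 3 and PND0 4 had little keratin RNA: the 10 epithelial markers matched of 12 summed to 30351 and 23805 there, and to 103675 and 107357 in PND0 1 and PND0 2. Of the 52 matrix genes, 33 were higher in both of these libraries than in PND0 1 and PND0 2, and 6 were lower, among them COL17A1 and FBLN1; over all genes tested these shares were 33.6% and 34.4%. At day 2, PND2N 1, PND2R 2 and PND2R 3 had the most RNA of desmin, the muscle intermediate filament (40049, 33144 and 29022, against 7460.1 to 23439.7 in the other 5 libraries of that day). The other smooth muscle markers did not all follow desmin. CNN1, ACTA2, SMTN, LMOD1 and MYOCD were also highest there. MYLK (930, 1366 and 792, against 3182 to 7138), CALD1 and SYNPO2 were lowest there, and ACTG2 overlapped. In these 3 libraries 12 of the 52 genes were below all 5 others and 9 were above all 5, where all genes tested gave 26.0% and 21.0%. The summed markers of stroma (11 matched of 12) overlapped between the groups, running from 83878 to 97017 at birth, from 85345 to 105283 in nursed and from 86230 to 99836 in replacer-fed gilts. Those of smooth muscle (10 matched of 12) did too, at 138443 to 208792, 130352 to 272402 and 153285 to 227524. Single genes of these lists were called all the same. MYLK and CALD1 fell in PND2R, and the stromal marker S100A4 rose there, while none of them was called in PND2N. Without a call in PND2R, DES was at 1.26 ± 0.42, MYOCD at 1.02 ± 0.35 and CNN1 at 0.83 ± 0.40. ACTG2, ACTA2 and LMOD1 were also above 0, and SMTN and SYNPO2 below. PDGFRA was at -1.76 ± 0.77 there. PDGFRB, NR2F2, HOXA10, HOXA11 and VIM were also below 0, and THY1, TWIST1, TWIST2 and TCF21 above. With both day 2 groups averaged, THY1 and S100A4 rose, by 0.62 ± 0.16 and 1.35 ± 0.43. S100A4 was at 2869, 3074, 849 and 663 in PND0. Much of the stroma sum was vimentin (VIM), so the sum says little of the other stromal markers. Of the leukocyte markers (11 matched of 12), LAPTM5 alone was called in PND2N and in PND2R, where it rose. The leukocyte sums overlapped: the newborn span of 3335 to 6700 enclosed the replacer-fed one (5323 to 5972) and met the nursed one (5506 to 7455). In PND2R ITGAM was at -1.92 ± 0.73, CSF1R at -0.69 ± 0.22 and AIF1 at 0.99 ± 0.33, without a call. PTPRC, CD14, CD3D and CD2 were also below 0, and CD3E, CD79A and LCP1 above. With both day 2 groups averaged, AIF1 rose as well as LAPTM5. The sums of other lists were lower in the replacer-fed group than at birth. The 10 endothelial markers matched of 12 summed to 10025 to 12385 in PND2R, wholly below the 12559.5 to 19289 of PND0, with 11049.5 to 16208 in PND2N. PECAM1 and FLT1 fell in PND2R, and VWF, TEK, EMCN, CLDN5 and ROBO4 were below 0 without a call. KDR, ESAM and EGFL7 were at 0.08 ± 0.18, 0.07 ± 0.33 and 0.13 ± 0.38 in PND2R. The 6 mesothelial markers matched of 8 were at 9275 to 10751 in PND2R, 10376 to 11571 in PND2N and 10959 to 16742 in PND0, and none was called in PND2R. Most of that sum was WT1, so it says little of the other mesothelial markers. In PND2R WT1 was at -0.53 ± 0.24. UPK3B, LRRN4, BNC1 and PKHD1L1 were also below 0, and CALB2 was at 0.03 ± 0.65. For adipocytes 4 markers matched of 7, with low sums of 16.1 to 33.4 in PND2R, 22.1 to 47.6 in PND2N and 45.5 to 59.1 in PND0, adiponectin (ADIPOQ) being at 1 in every library. Nearly all of that sum was PLIN1 and CIDEC, and ADIPOQ and LEP were too low to be tested. In PND2R CIDEC fell by 1.55 ± 0.38 (adjusted p = 0.0243) and PLIN1 was at -0.60 ± 0.62. The part of these marker differences in the matrix results was not tested, and that of the libraries only by leaving them out.

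**Figure D1:**
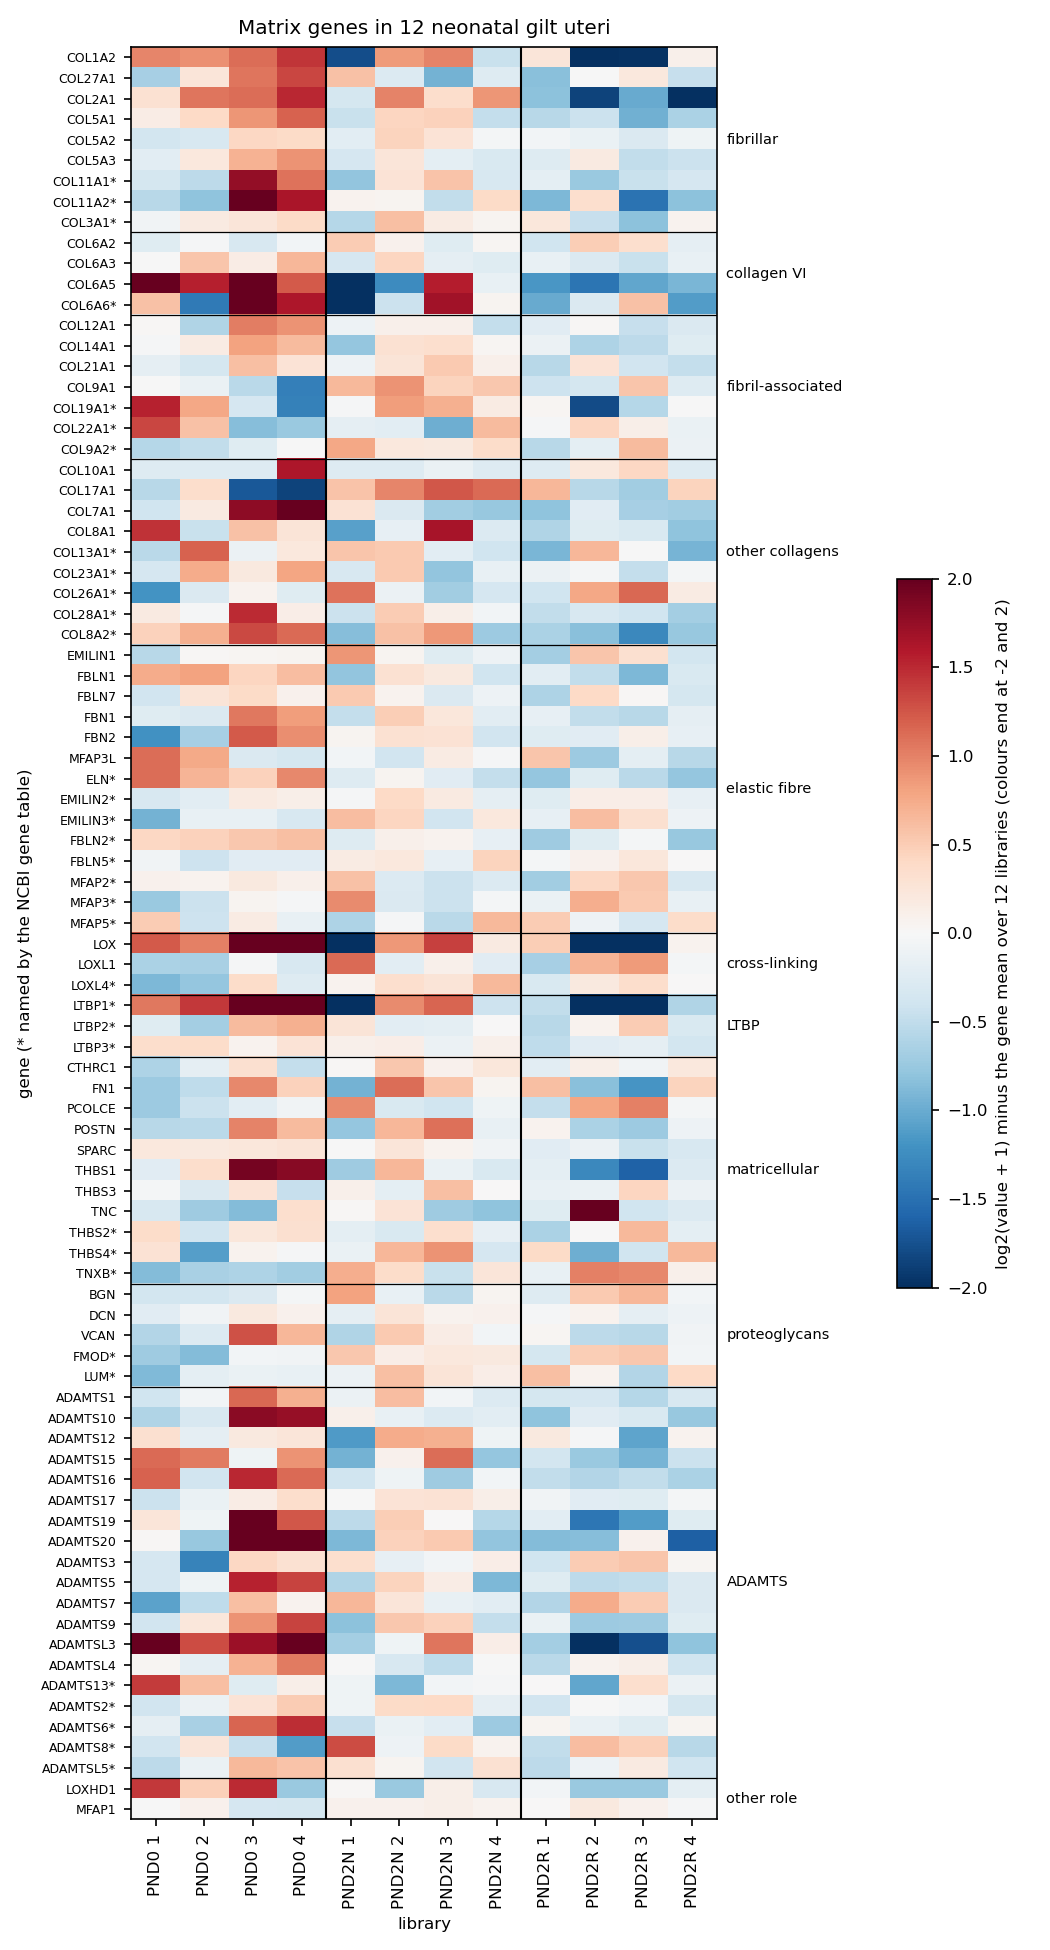
Each row is 1 of the 86 matrix entries, each column 1 library, and the colour is log2(value + 1) minus the mean of that gene over the 12 libraries, from -2 (blue) to 2 (red); vertical lines part the groups of 4 and horizontal lines the roles. PND0 3 and PND0 4 are the reddest columns, and LOX, LTBP1 and COL1A2 are blue in PND2N 1, PND2R 2 and PND2R 3.

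From birth to day 2 most of the matrix genes stood lower, and the falls that passed the test came mainly in the comparison of replacer-fed gilts with birth. In PND2R versus PND0, 10 of the 52 genes fell and none rose: COL2A1, COL5A1, COL6A5, FBLN1, SPARC, THBS1, ADAMTS15, ADAMTS16, ADAMTS19 and ADAMTSL3. Endothelial, mesothelial and adipocyte marker sums were lower there too, the mesothelial one being mostly WT1 and the adipocyte one mostly PLIN1 and CIDEC. Over all 16862 genes tested, 15.0% were called in that comparison, 7.70% higher and 7.31% lower. Of the 34 further entries, ELN, FBLN2, LTBP1, LTBP3 and COL8A2 fell and TNXB rose. In PND2N versus PND0, 1 of the 52 genes was called, COL17A1, which rose, and 1 of the further entries, ELN, which fell, against 3.32% of all genes. With both day 2 groups averaged, 11 of 52 were called, 10 lower and 1 higher, against 18.1% of all genes, of which 9.57% were higher and 8.49% lower. The share of the 52 genes that was called was thus near the background in PND2R and at day 2, where nearly all of the calls were falls. The 1 call in PND2N is too few to tell that share from the background.

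The median log2 change of the 52 genes was -0.36 in PND2N and -0.56 in PND2R, where all genes tested had medians of -0.04 and -0.06. For the averaged day 2 groups it was -0.48, against -0.05 over all genes. Of the 52 changes, 33 were below 0 in PND2N and 39 in PND2R, against 52.5% and 53.0% of all genes; these comparisons share the PND0 libraries. In PND2R, 13 genes had all 4 libraries below all 4 of PND0 and none had all above, where all genes gave 15.6% and 12.7%. In PND2N the counts were 2 below and 2 above, against 7.88% and 8.14%. Without PND0 3 and PND0 4, a check added after seeing the data, the medians became 0.11 in PND2N, -0.08 in PND2R and 0.02 at day 2. Since 33 of the 52 genes were higher in both of these libraries than in PND0 1 and PND0 2, leaving them out was bound to raise the medians. No other newborn pair was left out for comparison. The fit without PND0 3 and PND0 4 called 2 of the 52 genes in PND2R, COL2A1 and FBLN1, which were both among the 10, and no gene of the 52 in PND2N. Over all genes it called 7.03% in PND2R and 2.62% in PND2N.

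Single libraries also moved the count of 10 in PND2R: 6 genes were called without PND0 3, 6 without PND0 4, 5 without PND2R 2 and 2 without PND2R 3. The share of all genes called fell as well in these fits, from 15.0% to 8.06%, 5.15%, 3.23% and 3.37%. The day 2 count of 11 became 3 without PND0 3 or PND0 4, 6 without PND2N 4 and 7 without PND2R 3, and for all genes 18.1% became 9.28%, 6.05%, 9.83% and 10.8%. Leaving out the 3 libraries of high desmin gave 2 genes in PND2R, COL2A1 and ADAMTSL3, and 4 at day 2, where all genes gave 1.70% and 8.51%.

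**Figure D2:**
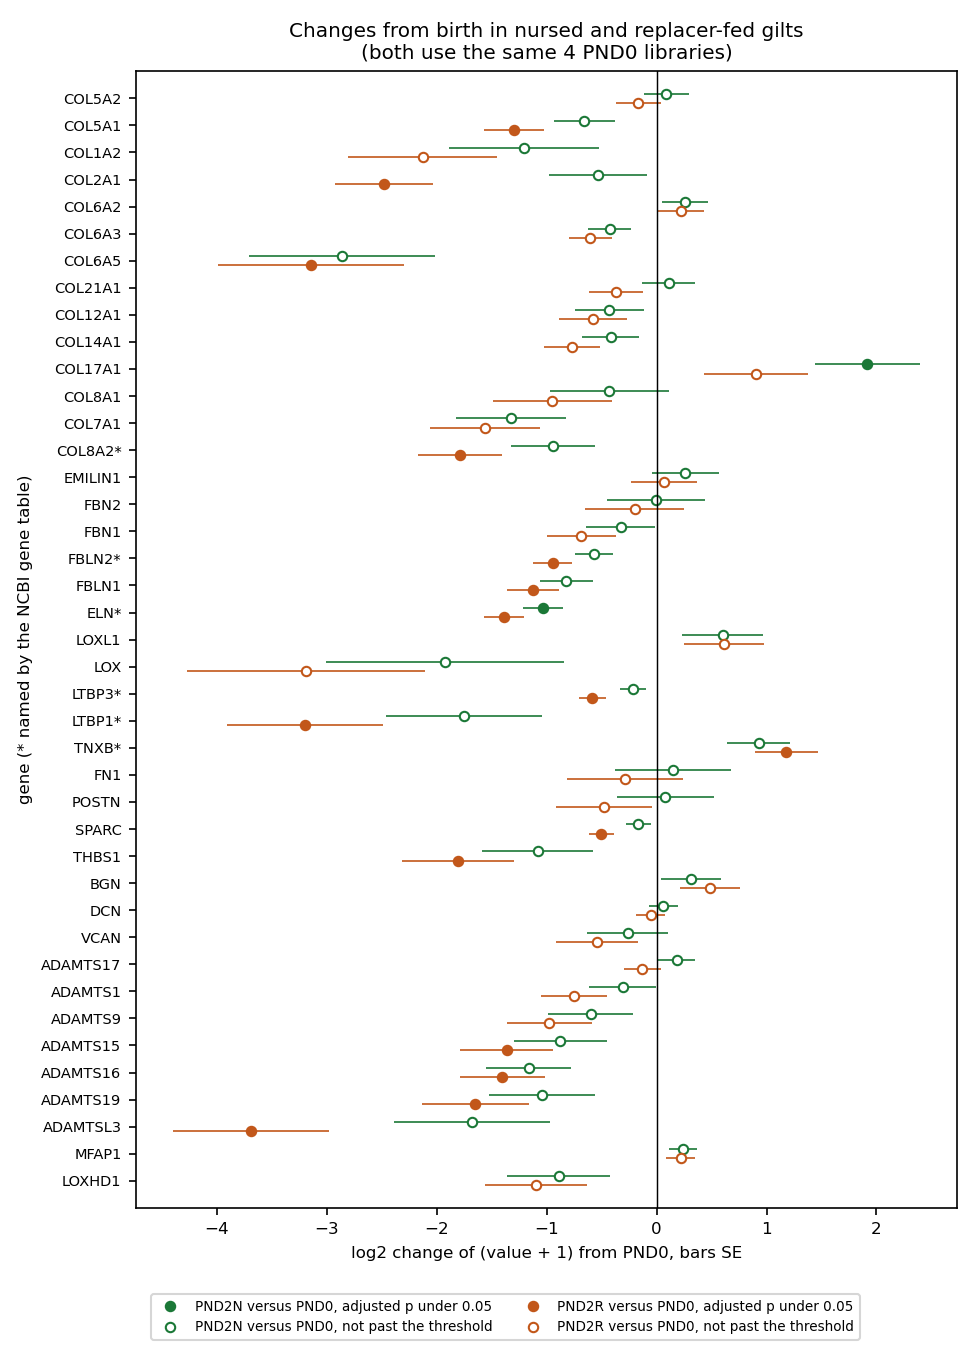
Log2 change from PND0 (x axis, bars are SE) of the 41 genes named by rule, nursed gilts in green and replacer-fed gilts in orange; filled points have an adjusted p under 0.05. Most points lie left of 0, and the filled ones are nearly all of PND2R.

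The elastic fibre core gave the clearest fall. ELN, the precursor of elastin (chr3:11139720-11197135 of Sscrofa10.2), was at 9752, 7208, 6163 and 8754 in PND0, 3766, 4653, 3839 and 3239 in PND2N and 2616, 3775, 3095 and 2620.1 in PND2R. Every newborn library lay above all 8 day 2 libraries. Its level fell by 1.03 ± 0.18 (adjusted p = 0.0213) in PND2N and fell by 1.39 ± 0.18 (adjusted p = 0.00391) in PND2R, and with the day 2 groups averaged it fell by 1.21 ± 0.16 (adjusted p = 0.00245). In PND2R the fall was called in 12 of the 12 fits that each left out 1 library (log2 change -1.51 to -1.29, adjusted p up to 0.0184). It also held without the 3 libraries of high desmin at -1.58 (adjusted p = 0.0189) and without the 2 newborn libraries at -1.49 (adjusted p = 0.0212). In PND2N it held in 9 of the 12 fits that each left out 1 library (log2 change -1.15 to -0.93, adjusted p up to 0.0821), and not without PND0 4, PND2N 1 or PND2N 4. With only the 8 libraries of PND2N and PND0 fitted the PND2N call was lost, at -1.03 (adjusted p = 0.0783), in a fit that called 0.0422% of all genes. A second entry of the table, described as elastin-like and lying beside ELN at chr3:11197727-11201155, was at 2703, 1911, 2547 and 3831 in PND0, 686, 1456, 1399 and 781 in PND2N and 784, 663, 595 and 714 in PND2R, again with no overlap between birth and day 2. It fell by 1.38 ± 0.28 (adjusted p = 0.0280) in PND2N and fell by 1.96 ± 0.28 (adjusted p = 0.00465) in PND2R.

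Among the fibulins, glycoproteins that bind elastin and fibrillin, the entries named FBLN1 and FBLN2 fell while FBLN5 and FBLN7 did not pass the test. FBLN1 (chr5:1096076-1148833) was at 7569, 7945, 6112 and 6933 in PND0, 2609.9, 5613, 5192 and 3443 in PND2N and 3917, 3214, 2439.7 and 3665 in PND2R. All 4 newborn values exceeded all 8 later ones. It fell by 1.12 ± 0.24 (adjusted p = 0.0155) in PND2R, and stood at -0.82 ± 0.24, adjusted p = 0.0757 in PND2N. In PND2R that fall passed in 11 of the 12 fits that each left out 1 library (log2 change -1.21 to -0.99, adjusted p up to 0.0539), and not without PND2R 3, and it did not pass without the 3 libraries of high desmin at -0.91 (adjusted p = 0.0634). FBLN2 (chr13:75928663-76089811) was at 3529, 3648, 3859 and 4032 in PND0, 2207, 2851, 2798 and 2355 in PND2N and 1615, 2237, 2569 and 1560.2 in PND2R. It too separated birth from day 2 with no overlap, and fell by 0.95 ± 0.17 (adjusted p = 0.0102) in PND2R, with -0.57 ± 0.17, adjusted p = 0.0859 in PND2N. That PND2R call held in 12 of the 12 fits that each left out 1 library (log2 change -1.08 to -0.84, adjusted p up to 0.0331). FBLN5, which is needed for elastin to be laid on microfibrils, ran the other way in value: 6471, 5070.1, 5816 and 5829 in PND0, 7570.3, 7875, 6052 and 9193 in PND2N and 6627, 7194, 7958 and 6800.4 in PND2R. Its changes were 0.39 ± 0.14, adjusted p = 0.129 in PND2N and 0.30 ± 0.14, adjusted p = 0.143 in PND2R. FBLN7 lay between 749.9 and 1648 over the 12 libraries, with overlapping groups.

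The microfibril scaffold itself did not pass the test. Fibrillin-1 (FBN1) was at 10956, 10666, 26990.5 and 23236 in PND0, 9347, 18344, 15299 and 11251 in PND2N and 11676, 9260.1, 8876 and 11468 in PND2R. PND0 3 and PND0 4 were above every other library, and the other newborn pair lay within the day 2 range. Its changes were -0.33 ± 0.31, adjusted p = 0.517 in PND2N and -0.68 ± 0.31, adjusted p = 0.135 in PND2R. Fibrillin-2 (FBN2), the fibrillin most abundant in embryonic tissue, was at 3825, 5593, 20775 and 16973 in PND0, 9206, 10930.0, 10912 and 6791 in PND2N and 7524, 7597, 9617 and 7909.8 in PND2R. The newborn pairs differed more than any other groups did, with every day 2 library between them. Its averaged day 2 change was -0.10 ± 0.39, adjusted p = 0.865, but without PND0 3 and PND0 4 it was 0.91 ± 0.21 with an adjusted p of 0.0339, a rise from the 2 newborn libraries that remained.

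EMILIN1, which lies between elastin and microfibrils, was at 15904, 23575, 23827 and 24076 in PND0, 42988, 24212, 19584 and 21720.5 in PND2N and 14567, 34193, 29100.5 and 17972 in PND2R. Its highest values were those of PND2N 1, PND2R 2 and PND2R 3, and the changes were 0.26 ± 0.30 and 0.07 ± 0.30. EMILIN3 had changes of 0.61 ± 0.26, adjusted p = 0.180 in PND2N and 0.56 ± 0.26, adjusted p = 0.136 in PND2R, and EMILIN2 lay between 6315 and 10407. MFAP2, a microfibril component, was at 7966, 7943, 8674 and 8103 in PND0, 11375, 6243, 5567 and 6217 in PND2N and 4638, 10034, 11012 and 6013 in PND2R. Here the newborn libraries were close together, and the day 2 values split, with PND2N 1, PND2R 2 and PND2R 3 above them and the other 5 below. MFAP5 (1084 to 2602), MFAP3 (51.9 to 169) and MFAP3L (19.3 to 72.3) overlapped between groups and did not pass. In all, 1 of 6 elastic fibre genes among the 52 and 2 of 8 among the further entries fell in PND2R, and none of the 14 rose, against 7.31% of all genes lower and 7.70% higher.

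**Figure D3:**
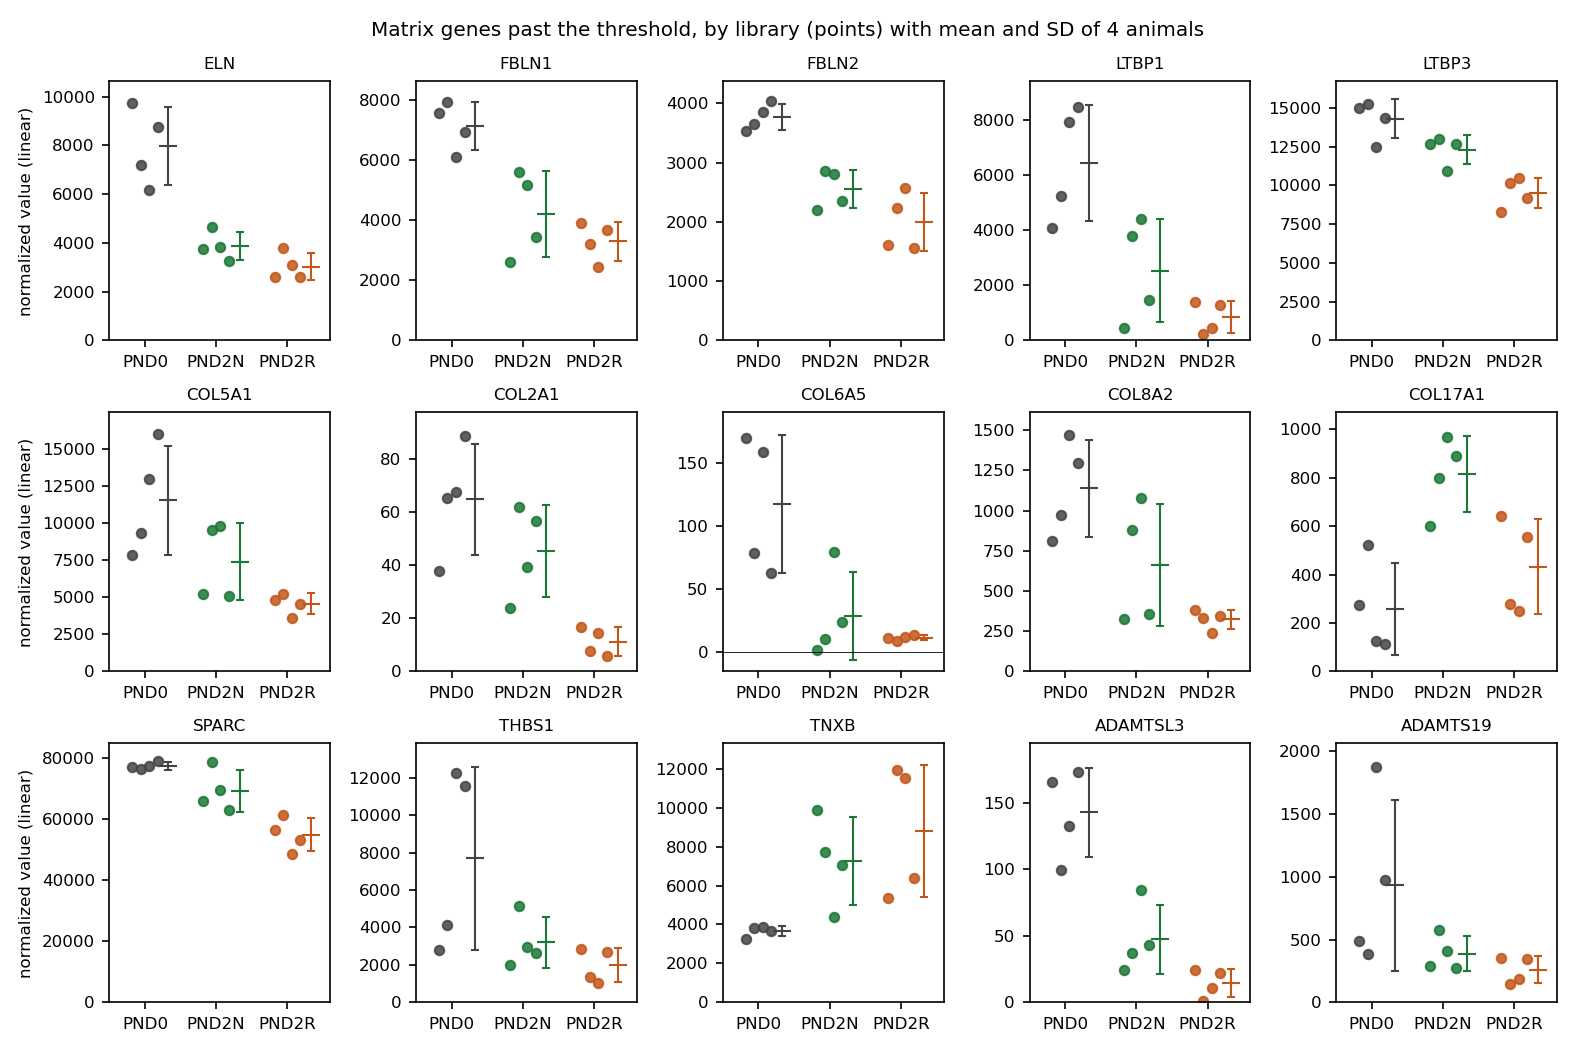
Normalized values (linear, y axis) of 15 matrix genes past the threshold in at least 1 comparison, with 1 point per library and the mean and SD of 4 animals beside them. ELN, FBLN1, FBLN2 and ADAMTSL3 have every PND0 point above every day 2 point, and TNXB has every PND0 point below.

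Of the proteins that hold TGF beta on microfibrils, LTBP1 and LTBP3 fell in PND2R and LTBP2 did not pass. LTBP1 (chr3:111808845-112013952) was at 4094, 5234, 7934 and 8477 in PND0, 461, 3793, 4399 and 1467 in PND2N and 1391, 242, 465 and 1288 in PND2R. PND2R 2, PND2N 1 and PND2R 3 were lowest, and PND2N 3 overlapped the newborn range. It fell by 3.20 ± 0.71 (adjusted p = 0.0179) in PND2R, against -1.75 ± 0.71, adjusted p = 0.163 in PND2N. The call in PND2R was made in 9 of the 12 fits that each left out 1 library (log2 change -3.55 to -2.71, adjusted p up to 0.0600), and not without PND0 4, PND2R 2 or PND2R 3, and it became -2.79 (adjusted p = 0.0988) without the 2 newborn libraries. Its neighbouring LTBP1-like entry followed it, with -2.99 ± 0.73, adjusted p = 0.0235 in PND2R. LTBP3 (chr2:5630762-5649161) was at 15010.4, 15258, 12476 and 14358 in PND0, 12632, 12962, 10891 and 12654 in PND2N and 8285, 10135, 10455 and 9189 in PND2R. All replacer-fed libraries lay below all others, including the nursed ones. It fell by 0.59 ± 0.12 (adjusted p = 0.0142) in PND2R, where the call held in 12 of the 12 fits that each left out 1 library (log2 change -0.65 to -0.52, adjusted p up to 0.0420), and it did not pass without the 3 libraries of high desmin at -0.71 (adjusted p = 0.0503). LTBP2, which sits on the same scaffold, lay between 3197 and 8422 and changed by -0.14 ± 0.31 and -0.17 ± 0.31.

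The cross-linking enzymes gave no call. LOX, the lysyl oxidase of collagen and elastin, was at 1215, 1048, 2805 and 2353 in PND0, 52.011, 954, 1341 and 592 in PND2N and 736, 36.8, 78.6 and 548 in PND2R. PND2N 1, PND2R 2 and PND2R 3 were far below the rest, so that each day 2 group held both low and high libraries. The change was -3.19 ± 1.08, adjusted p = 0.0632 in PND2R, where no library overlapped with PND0, and -1.93 ± 1.08, adjusted p = 0.288 in PND2N. LOXL1, which acts on elastin, was highest in those same 3 libraries: 925, 913, 1398 and 1145 in PND0, 3117, 1235, 1523 and 1219 in PND2N and 901, 2293, 2589 and 1383 in PND2R. LOXL4 ran from 49.4 to 147, with changes of 0.72 ± 0.32 and 0.45 ± 0.32.

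**Figure D4:**
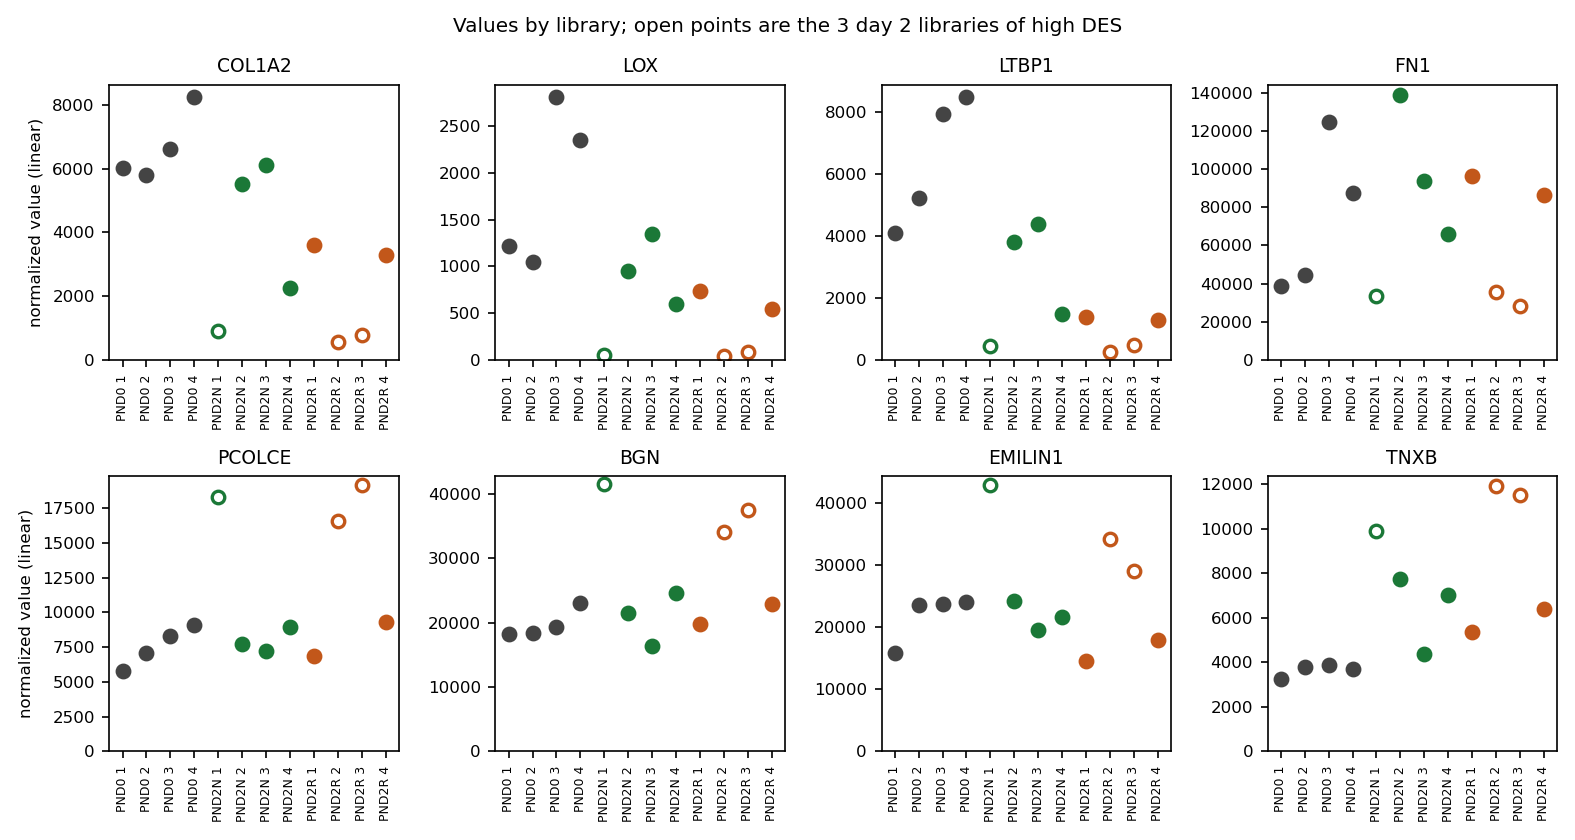
Normalized values (linear, y axis) of 8 matrix genes in each of the 12 libraries (x axis; grey PND0, green PND2N, orange PND2R), with open points for the 3 day 2 libraries of high desmin. COL1A2, LOX, LTBP1 and FN1 are low and PCOLCE, BGN, EMILIN1 and TNXB are high in those libraries.

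Among the fibrillar collagens all 6 changes of the 52 were below 0 in PND2R, and 2 passed, where 53.0% of all genes were below 0 and 7.31% were called lower. COL5A1, the minor collagen that starts and limits fibrils (chr1:288559820-288670367), was at 7867, 9307, 12980.0 and 16006 in PND0, 5204, 9526, 9779.9 and 5072 in PND2N and 4826, 5250.4, 3623 and 4560.3 in PND2R. All replacer-fed values lay below the newborn ones, while PND2N 2 and PND2N 3 were within the newborn range. It fell by 1.30 ± 0.27 (adjusted p = 0.0156) in PND2R, and stood at -0.66 ± 0.27, adjusted p = 0.173 in PND2N. For PND2R, the call held in 11 of the 12 fits that each left out 1 library (log2 change -1.46 to -1.12, adjusted p up to 0.0548), and not without PND2R 3, and became -0.92 (adjusted p = 0.0880) without the 2 newborn libraries and -1.24 (adjusted p = 0.0819) without the 3 of high desmin. COL2A1, best known as the collagen of cartilage (chr5:80414690-80447661), had low values: 37.9, 65.4, 67.5 and 88.8 in PND0, 23.8, 61.9, 39.2 and 56.8 in PND2N and 16.9, 7.68, 14.6 and 5.72 in PND2R. Replacer-fed libraries lay below every other library, and nursed and newborn ones overlapped. It fell by 2.48 ± 0.44 (adjusted p = 0.00937) in PND2R, with -0.53 ± 0.44, adjusted p = 0.457 in PND2N. The call held in 12 of the 12 fits that each left out 1 library (log2 change -2.71 to -2.23, adjusted p up to 0.0354), and it held without the 2 newborn libraries at -2.17 (adjusted p = 0.0478) and without the 3 of high desmin at -2.53 (adjusted p = 0.0411). Of 7 cartilage markers matched, COL2A1 and MATN3 fell in PND2R, the latter by 2.08 ± 0.63 (adjusted p = 0.0458). Of the other markers, COL11A2 was at -1.42 ± 0.69 and MATN1 at -0.30 ± 0.47, while ACAN (aggrecan) was at 0.43 ± 0.36, COL9A1 at 0.39 ± 0.31 and SOX9 at 0.32 ± 0.50. The summed markers overlapped, from 1739 to 4509.8 at birth, 2084 to 3604 in nursed and 1726 to 3360.3 in replacer-fed gilts; the part of any cartilage RNA in this result was not tested.

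COL1A2, a chain of type I collagen, was at 6032, 5785, 6621 and 8256 in PND0, 890.5, 5515, 6099.6 and 2247 in PND2N and 3610.4, 564, 778 and 3291 in PND2R. PND2N 1, PND2R 2 and PND2R 3 stood far below the rest, and PND2R did not overlap PND0. Its changes were -1.21 ± 0.68, adjusted p = 0.289 in PND2N and -2.13 ± 0.68, adjusted p = 0.0534 in PND2R, just short of the threshold. The neighbouring entry described as collagen alpha-2(I) chain-like (chr9:81687297-81832997) overlaps that entry on the other strand, and the labels do not say whether counting used strand, so the values of the pair cannot be kept apart. It was at 40814, 40409, 45176 and 56184 in PND0, 5202, 31764, 36396 and 12729 in PND2N and 20260.1, 5115, 4347 and 17864 in PND2R, the same order of libraries as COL1A2 within each group but for PND2R 2 and PND2R 3. It fell by 2.26 ± 0.63 (adjusted p = 0.0347) in PND2R. COL3A1, the type III chain, which took 0.427% to 1.20% of a library's total, was at 209151, 249241, 259428 and 286412 in PND0, 147554, 330723, 246066 and 226591 in PND2N and 256627, 158616, 123716 and 229043 in PND2R. The lowest values were again those of PND2N 1, PND2R 2 and PND2R 3, and its changes were -0.13 ± 0.26, adjusted p = 0.781 and -0.44 ± 0.26, adjusted p = 0.240. COL5A2 was at 28227, 29362, 48648 and 47593 in PND0, 31464, 49506, 44069 and 35755 in PND2N and 35168, 33413, 29908 and 34396 in PND2R and changed by 0.09 ± 0.21 in PND2N and -0.17 ± 0.21 in PND2R. COL5A3 (1536 to 4014), COL27A1 (1166 to 5703), COL11A2 (14.3 to 247) and COL11A1 did not pass. COL11A1, a fibril-starting chain like COL5A1, was at 629.9, 557, 2737 and 1715 in PND0, where PND0 3 and PND0 4 were highest, and 703, 479, 593 and 635 in PND2R.

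Collagen VI forms beaded filaments around cells. COL6A3 was at 36984, 54577, 41009 and 58535 in PND0, 29216, 49887, 32762 and 31122 in PND2N and 33380.3, 30177, 27167 and 33342 in PND2R. Replacer-fed values lay below all newborn ones, and the change of -0.60 ± 0.19, adjusted p = 0.0551 in PND2R missed the threshold, as did -0.43 ± 0.19, adjusted p = 0.207 in PND2N. COL6A2 was at 28024, 32758, 26690.3 and 31902 in PND0, 47528, 35359, 27986 and 34285 in PND2N and 25249, 46571, 42022 and 29334 in PND2R, highest in PND2N 1, PND2R 2 and PND2R 3, with 0.26 ± 0.21 and 0.22 ± 0.21. COL6A5, an alternative chain (chr13:1793407-1881762), had low values of 169, 78.3, 159 and 62.5 in PND0, 1.21, 10.24, 79.4 and 23.4 in PND2N and 11.1, 8.85, 12.1 and 13.4 in PND2R. Only PND2N 3 among the day 2 libraries reached the newborn range. It fell by 3.14 ± 0.85 (adjusted p = 0.0312) in PND2R, against -2.86 ± 0.85, adjusted p = 0.0800 in PND2N. Its fall in PND2R passed in 6 of the 12 fits that each left out 1 library (log2 change -3.40 to -2.93, adjusted p up to 0.0866), and not without PND0 1, PND0 3, PND0 4, PND2R 2, PND2R 3 or PND2R 4. It did not pass without the 2 newborn libraries, at -3.25 (adjusted p = 0.104), or without the 3 of high desmin, at -3.04 (adjusted p = 0.0664). COL6A6 was at 1824, 452, 4985 and 3736 in PND0, 244, 898, 3907 and 1254 in PND2N and 599, 989.8, 1830.2 and 560.5 in PND2R, and within each of PND0 and PND2N its libraries spread more widely than the groups differed.

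The fibril-associated collagens, which coat fibrils, gave no call among 4 genes and 3 further entries. COL14A1 was at 7936, 9019.8, 14004 and 12519 in PND0, 4716, 9935, 10118 and 8303 in PND2N and 7429, 5259.8, 5608 and 6777 in PND2R. PND2R lay wholly below PND0, with -0.77 ± 0.26, adjusted p = 0.0600. COL12A1 was at 9872, 6418, 19869 and 18240.1 in PND0, 9068, 10451, 10500.4 and 7019 in PND2N and 8297, 9929, 7052 and 7987 in PND2R, and PND0 3 and PND0 4 exceeded every other library. Its change was -0.43 ± 0.31 in PND2N and -0.58 ± 0.31 in PND2R. COL9A1 was at 415, 381, 286 and 162 in PND0, 657, 782, 568 and 609 in PND2N and 313, 328, 612 and 350.4 in PND2R. Every nursed library was above every newborn one, and in PND2R only PND2R 3 reached the nursed range. The changes were 1.15 ± 0.31, adjusted p = 0.0654 in PND2N and 0.39 ± 0.31, adjusted p = 0.370 in PND2R. COL9A2, its partner chain, likewise had all 4 nursed libraries above PND0, at 0.72 ± 0.29, adjusted p = 0.161. COL21A1 changed by 0.11 ± 0.24 and -0.37 ± 0.24, and COL19A1 (15.4 to 164) and COL22A1 (243 to 1205) overlapped between groups.

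Of the collagens that anchor epithelium, COL17A1 rose in PND2N and COL7A1 fell at day 2, and both differed between the newborn libraries of low and high keratin. COL17A1, a transmembrane collagen of the hemidesmosomes by which epithelial cells hold to their basement membrane (chr14:124692426-124735369), was at 276, 521, 125 and 112 in PND0, 603, 801, 968 and 891 in PND2N and 644, 278, 252 and 554 in PND2R. The nursed libraries lay above all newborn ones, and among the newborn PND0 3 and PND0 4 were lowest, as they were for keratin 8 (49821, 51645, 14444 and 11099.6 in PND0). It rose by 1.92 ± 0.48 (adjusted p = 0.0497) in PND2N and by 1.41 ± 0.41 (adjusted p = 0.0367) at day 2, and stood at 0.91 ± 0.48, adjusted p = 0.182 in PND2R. The PND2N call held in 1 of the 12 fits that each left out 1 library (log2 change 1.61 to 2.35, adjusted p up to 0.141), and not without PND0 1, PND0 3, PND0 4, PND2N 1, PND2N 2, PND2N 3, PND2N 4, PND2R 1, PND2R 2, PND2R 3 or PND2R 4, and without both low-keratin libraries the change was 1.08 (adjusted p = 0.188). The day 2 call held in 6 of the 12 fits that each left out 1 library (log2 change 1.11 to 1.84, adjusted p up to 0.123), and not without PND0 1, PND0 3, PND0 4, PND2N 2, PND2N 4 or PND2R 4, and without the low-keratin libraries it became 0.57 (adjusted p = 0.355); the part of the epithelial RNA in these rises was not tested further. COL7A1, the collagen of anchoring fibrils, had the opposite newborn pattern: 2020.4, 3034, 9239 and 13035 in PND0, 3261, 2197, 1649 and 1578 in PND2N and 1529, 2278, 1694 and 1644 in PND2R. PND0 3 and PND0 4 were above all other libraries, and PND0 1 and PND0 2 were within the day 2 range. It fell by 1.44 ± 0.43 (adjusted p = 0.0397) at day 2, a call that held in 5 of the 12 fits that each left out 1 library (log2 change -1.90 to -1.004, adjusted p up to 0.130), and not without PND0 3, PND0 4, PND2N 2, PND2N 4, PND2R 2, PND2R 3 or PND2R 4, and without both of these newborn libraries the change was -0.37 (adjusted p = 0.396).

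COL8A2, a chain of network-forming collagen VIII (chr6:85196491-85199278), was at 813, 970.01, 1472 and 1297 in PND0, 325, 882, 1080.1 and 355 in PND2N and 379.96, 331, 241 and 347 in PND2R. PND2R lay wholly below PND0, and PND2N split into 2 high and 2 low libraries. It fell by 1.79 ± 0.38 (adjusted p = 0.0159) in PND2R. That call held in 11 of the 12 fits that each left out 1 library (log2 change -1.94 to -1.65, adjusted p up to 0.0548), and not without PND2R 3, and became -1.47 (adjusted p = 0.0895) without the 2 newborn libraries and -1.61 (adjusted p = 0.0788) without the 3 of high desmin. COL8A1, its partner chain, was at 254, 68.2, 139 and 111 in PND0, 43.1, 82.9, 293 and 76.99 in PND2N and 60.7, 78.2, 75.3 and 52.8 in PND2R and changed by -0.43 ± 0.54 and -0.95 ± 0.54. COL26A1 was at 1273, 2380.0, 3066 and 2464 in PND0, 6194, 2669.8, 1802 and 2299 in PND2N and 2212, 4963, 6470.1 and 3248 in PND2R, again highest in PND2N 1, PND2R 2 and PND2R 3. COL13A1 (509 to 2204), COL23A1 (347 to 1037) and COL28A1 (57.6 to 262) did not pass. COL10A1, a collagen of growth cartilage, was at 1 in 8 of the 12 libraries and reached 6.34 in PND0 4.

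SPARC, a collagen-binding matricellular protein (chr16:76532390-76571276), had newborn values close to each other: 77216, 76278, 77308 and 79219 in PND0, 65874, 78772, 69702 and 63023 in PND2N and 56627, 61268, 48542 and 53183 in PND2R. Replacer-fed libraries lay below all newborn and all nursed ones, and PND2N 2 reached the newborn range. It fell by 0.50 ± 0.11 (adjusted p = 0.0186) in PND2R and stood at -0.17 ± 0.11, adjusted p = 0.369 in PND2N. The PND2R call held in 11 of the 12 fits that each left out 1 library (log2 change -0.56 to -0.44, adjusted p up to 0.0671), and not without PND2R 3, and became -0.50 (adjusted p = 0.0949) without the 3 libraries of high desmin and -0.49 (adjusted p = 0.0588) without the 2 newborn ones. THBS1, a matricellular protein that can activate latent TGF beta (chr1:138051798-138069109), was at 2789, 4156, 12252 and 11529.8 in PND0, 1989.7, 5172, 2979.9 and 2652 in PND2N and 2848, 1335, 1061 and 2709 in PND2R. PND0 3 and PND0 4 exceeded every other library, PND0 1 lay below PND2R 1, and the groups overlapped. It fell by 1.81 ± 0.51 (adjusted p = 0.0354) in PND2R, and stood at -1.08 ± 0.51, adjusted p = 0.215 in PND2N. Its PND2R call held in 7 of the 12 fits that each left out 1 library (log2 change -2.20 to -1.49, adjusted p up to 0.110), and not without PND0 3, PND0 4, PND2N 4, PND2R 2 or PND2R 3, and it was -0.90 (adjusted p = 0.233) without both newborn libraries and -1.20 (adjusted p = 0.248) without the 3 of high desmin. TNXB, tenascin-X, which is bound to collagen fibrils (chr7:27996343-28098066), was at 3268, 3805, 3892 and 3681 in PND0, 9876, 7715, 4379.6 and 7040.1 in PND2N and 5366, 11928, 11528 and 6383 in PND2R. All 8 day 2 values lay above all newborn ones, and PND2N 1, PND2R 2 and PND2R 3 were highest. It rose by 1.18 ± 0.29 (adjusted p = 0.0236) in PND2R and stood at 0.93 ± 0.29, adjusted p = 0.0882 in PND2N. Its rise in PND2R passed in 9 of the 12 fits that each left out 1 library (log2 change 1.01 to 1.39, adjusted p up to 0.0780), and not without PND0 4, PND2R 2 or PND2R 3, and without the 3 libraries of high desmin it was 0.68 (adjusted p = 0.128). Without the 2 newborn libraries it was as large but did not pass, at 1.23 (adjusted p = 0.0806).

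Fibronectin and periostin, which link cells to collagen, differed more between libraries than between groups. FN1 was at 38554, 44701, 124433 and 87650.1 in PND0, 33248, 138801, 93628 and 65876 in PND2N and 96389, 35723, 28294 and 86419.7 in PND2R. PND2N 1, PND2R 2 and PND2R 3 were lowest, followed by PND0 1 and PND0 2. Its changes were 0.15 ± 0.53 in PND2N and -0.29 ± 0.53 in PND2R. POSTN was at 14849.6, 15061, 43362 and 34003 in PND0, 12724, 34519, 47066 and 19816 in PND2N and 23035, 14109, 13193 and 20426 in PND2R, with the same libraries low, and changed by 0.08 ± 0.44 and -0.48 ± 0.44. PCOLCE, which aids removal of the procollagen C-propeptide, was at 5798, 7073, 8286 and 9094 in PND0, 18307, 7744, 7226 and 8976 in PND2N and 6853, 16570.0, 19154 and 9309.7 in PND2R. PND2N 1, PND2R 2 and PND2R 3 were highest and the rest overlapped, with changes of 0.39 ± 0.35, adjusted p = 0.490 and 0.68 ± 0.35, adjusted p = 0.180. Tenascin-C (TNC) was between 247 and 569.8 in 11 libraries and at 5976 in PND2R 2. CTHRC1 was at 41.965, 56.9, 81.2 and 46.2 in PND0, 65.9, 94.5, 68.5 and 76.1 in PND2N and 55.4, 70.4, 61.6 and 74.9 in PND2R, with overlapping groups. THBS2 (1363 to 3322), THBS3 (1319 to 2754) and the entry named THBS4 (59.7 to 243) did not pass. In this role 2 of 8 genes fell in PND2R, and 1 of the 3 further entries rose, where all genes gave 7.31% lower and 7.70% higher.

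The proteoglycans gave no call in any comparison. Decorin (DCN), which binds collagen fibrils and limits their width, was at 39388, 44211, 52790.5 and 49281 in PND0, 40634, 55406, 48721 and 49047 in PND2N and 45518, 48549, 40893 and 43077 in PND2R. The groups overlapped, and its changes of 0.06 ± 0.13, adjusted p = 0.788 in PND2N and -0.05 ± 0.13, adjusted p = 0.784 in PND2R were small beside those of ELN. Biglycan (BGN), its close relative, was at 18283, 18330.2, 19362 and 23107 in PND0, 41512, 21461, 16318 and 24661 in PND2N and 19843, 34150.4, 37522 and 22838 in PND2R. PND2N 1, PND2R 2 and PND2R 3 were highest, with changes of 0.31 ± 0.27 and 0.49 ± 0.27. Versican (VCAN), the large proteoglycan that binds hyaluronan, was at 23249.8, 28832, 84515 and 55178 in PND0, 22903, 50351, 38763 and 33604 in PND2N and 36024, 24278, 23804 and 33390.4 in PND2R. PND0 3 and PND0 4 were above all others, and the changes were -0.26 ± 0.37 and -0.54 ± 0.37. Lumican (LUM) was at 20110.5, 32442, 33825 and 33565 in PND0, 34052, 56041, 44578 and 40573 in PND2N and 56162, 39124, 24672 and 49101 in PND2R, and all nursed libraries exceeded the newborn ones at 0.56 ± 0.26, adjusted p = 0.220. Fibromodulin (FMOD), which like lumican binds fibrillar collagen, was at 5319, 4735, 8375 and 8273 in PND0, 12607, 9560.1, 9999.6 and 9885 in PND2N and 6809, 12148, 12638 and 8338 in PND2R. Nursed and newborn libraries did not overlap, and the changes were 0.69 ± 0.24, adjusted p = 0.118 in PND2N, 0.58 ± 0.24, adjusted p = 0.106 in PND2R and 0.64 ± 0.21, adjusted p = 0.0529 at day 2, the last just short of the threshold.

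Of the 14 ADAMTS genes and ADAMTS-like genes among the 52, 4 fell in PND2R, 3 at day 2 and none in PND2N, against 7.31%, 8.49% and 1.41% of all genes. None of the 5 further entries of these families was called. ADAMTSL3, an ADAMTS-like matrix protein without a protease domain (chr7:56766339-56905682), had low values of 166, 99.5, 133 and 173 in PND0, 24.4, 37.4, 84.6 and 43.5 in PND2N and 24.4, 1, 10.996 and 22.3 in PND2R. Every newborn library lay above every later one, and the nursed libraries lay above the replacer-fed ones, the closest pair by a narrow margin. It fell by 3.69 ± 0.71 (adjusted p = 0.0119) in PND2R and fell by 2.68 ± 0.61 (adjusted p = 0.0159) at day 2, and stood at -1.68 ± 0.71, adjusted p = 0.176 in PND2N. In PND2R that fall passed in 12 of the 12 fits that each left out 1 library (log2 change -4.09 to -2.87, adjusted p up to 0.0370), and without the 2 newborn libraries it was -3.57 (adjusted p = 0.0542). A second entry described as ADAMTS-like protein 3-like (chr7:56504142-56675260) had higher values, overlapping groups and -0.54 ± 0.21, adjusted p = 0.0933 in PND2R. ADAMTS19 (chr2:137113693-137361948) was at 486, 387, 1874 and 971 in PND0, 287, 579, 412 and 276 in PND2N and 355, 149.5, 189.6 and 348 in PND2R. PND2R lay below PND0, and it fell by 1.65 ± 0.48 (adjusted p = 0.0411) there, a call that held in 7 of the 12 fits that each left out 1 library (log2 change -1.98 to -1.22, adjusted p up to 0.121), and not without PND0 3, PND0 4, PND2N 4, PND2R 2 or PND2R 3. Without both newborn libraries the change was -0.83 (adjusted p = 0.231), and without the 3 of high desmin -1.12 (adjusted p = 0.277).

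ADAMTS15, which can cut versican (chr9:63889704-63912133), was at 1097, 1029, 473 and 932 in PND0, 259, 532, 1087 and 291 in PND2N and 389, 298, 262 and 370 in PND2R. PND2R lay below PND0, and PND2N 3 was near the top of the newborn range. It fell by 1.36 ± 0.42 (adjusted p = 0.0494) in PND2R, a call that held in 3 of the 12 fits that each left out 1 library (log2 change -1.64 to -1.24, adjusted p up to 0.133), and not without PND0 1, PND0 2, PND0 4, PND2N 2, PND2N 4, PND2R 1, PND2R 2, PND2R 3 or PND2R 4. It was -1.70 (adjusted p = 0.0691) without the 2 newborn libraries and -1.15 (adjusted p = 0.211) without the 3 of high desmin. ADAMTS16 (chr16:81887815-81939959) was near the lowest value of the table, at 9.20, 2.45, 11.8 and 8.84 in PND0, 2.42, 3.26, 1.76 and 3.35 in PND2N and 2.21, 2.01, 2.20 and 1.91 in PND2R. It fell by 1.40 ± 0.39 (adjusted p = 0.0334) in PND2R, where the call held in 6 of the 12 fits that each left out 1 library (log2 change -1.82 to -1.19, adjusted p up to 0.0877), and not without PND0 1, PND0 3, PND0 4, PND2R 2, PND2R 3 or PND2R 4. The same 2 checks gave -0.94 (adjusted p = 0.188) and -1.41 (adjusted p = 0.177). ADAMTS1, a protease of versican, was at 3153, 3983, 9163 and 6756 in PND0, 3820.2, 6322, 4001 and 3404 in PND2N and 3233, 3285, 2773 and 3308 in PND2R. Newborn and later values overlapped, with -0.75 ± 0.30, adjusted p = 0.0980 in PND2R. ADAMTS9, likewise a versican protease, was at 2618, 3994, 6361 and 8738 in PND0, 1939, 4958, 4673 and 2457 in PND2N and 3099, 2072, 2083 and 2884 in PND2R and changed by -0.98 ± 0.39, adjusted p = 0.0938. ADAMTS10, a partner of fibrillin-1, was at 1324, 1609, 7007 and 6672 in PND0 and within 1141 to 2144 at day 2, so that the newborn pairs differed more than any day 2 library differed from PND0 1 or PND0 2. ADAMTS5 had the same newborn split, at 1242, 1481, 4549 and 4031. ADAMTS17 was at 1626, 1985, 2421 and 2789 in PND0, 2172, 2637, 2664 and 2369.7 in PND2N and 2082, 1864, 1842 and 2128 in PND2R and changed by 0.18 ± 0.17 and -0.13 ± 0.17. ADAMTS2 and ADAMTS3, which remove procollagen N-propeptides, lay between 3976 and 7415 and between 524 and 1953, with no call. ADAMTS8 was highest in PND2N 1, at 779.8, and ADAMTS6, ADAMTS7, ADAMTS12, ADAMTS13, ADAMTS20, ADAMTSL4 and ADAMTSL5 did not pass.

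Of the 52 genes, 2 carry family names but are known for other work. MFAP1, a component of the spliceosome, was at 3642, 3913, 2901 and 2879 in PND0, 3878, 3877, 3971 and 3866 in PND2N and 3687, 4194, 3904 and 3619 in PND2R. It changed by 0.24 ± 0.13 and 0.22 ± 0.13, and PND0 3 and PND0 4 were lowest. LOXHD1, known from hair cells of the inner ear, was between 1 and 8.46 and did not pass.

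The nursed and replacer-fed gilts were compared directly at day 2, the test of feeding at the same age. None of the 52 genes and none of the 34 further entries was called by limma, against 0.0119% of all genes, and 5 of the 52 had an unadjusted p under 0.05, as did 2.68% of all genes. These were COL2A1, COL5A1, COL9A1, SPARC and ADAMTSL3, all higher in PND2N. COL2A1 was higher by 1.95 ± 0.44 with an adjusted p of 0.860, and ADAMTSL3 by 2.01 ± 0.71. COL9A1 was higher by 0.75 ± 0.31, COL5A1 by 0.64 ± 0.27 and SPARC by 0.34 ± 0.11. In COL2A1, SPARC, ADAMTSL3, ADAMTS1 and ADAMTS17 every nursed library lay above every replacer-fed one, 5 of 52 where all genes gave 1.39%. Of the 52 differences 45 were above 0, with a median of 0.26, against 54.5% above 0 and a median of 0.03 over all genes tested. Among the further entries LTBP3 was higher by 0.37 ± 0.12 in PND2N with no overlap, and ELN by 0.36 ± 0.18 with overlap. A gene called in PND2R and not in PND2N is thus not shown to differ between the feeding groups.

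Several of the genes are spread over more than 1 entry of the table, and such entries did not always move together. For ELN, LTBP1 and COL1A2 both entries ran in the same direction in each comparison, and in each pair the entries lie on opposite strands. COL5A2 and its neighbour parted: the latter was at 3075, 3182, 6714 and 6416 in PND0, 879, 4043, 4321 and 1864 in PND2N and 2887, 821, 1073 and 2439 in PND2R, with PND2N 1, PND2R 2 and PND2R 3 lowest and -1.52 ± 0.55, adjusted p = 0.0730 in PND2R. FBLN1 and the fibulin-1-like entry parted too, since the latter was at 15242, 13711, 11324 and 13184 in PND0, 18575, 16416, 11443 and 17001 in PND2N and 12133, 20645, 21116 and 13992 in PND2R and changed by 0.31 ± 0.21, adjusted p = 0.288 in PND2R while FBLN1 fell. The entry beside COL5A1 was at 2557, 2892, 1385 and 1370.4 in PND0, 1136, 810.4, 802 and 754 in PND2N and 1604, 1287, 1301 and 1697 in PND2R. It fell by 1.16 ± 0.26 (adjusted p = 0.0363) in PND2N and stood at -0.41 ± 0.26, adjusted p = 0.261 in PND2R, where COL5A1 was called in PND2R and not in PND2N. A second thrombospondin-4-like entry (chr2:90163741-90170637) was at 78.2, 39.6, 67.6 and 62.8 in PND0, 756, 359, 212 and 546 in PND2N and 339, 454, 844 and 399 in PND2R. All 8 day 2 libraries lay above all newborn ones, and it rose by 2.79 ± 0.41 (adjusted p = 0.0113) in PND2N and by 2.97 ± 0.41 (adjusted p = 0.00465) in PND2R. The ADAMTS17-like neighbour fell by 2.36 ± 0.69 (adjusted p = 0.0408) in PND2R, where ADAMTS17 was at -0.13 ± 0.17. The neighbour of MFAP3, near the lowest value of the table, fell by 2.02 ± 0.55 (adjusted p = 0.0331) there, with MFAP3 at 0.53 ± 0.37. Where such entries part, the value of a named gene covers only the reads given to that entry.

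**Figure D5:**
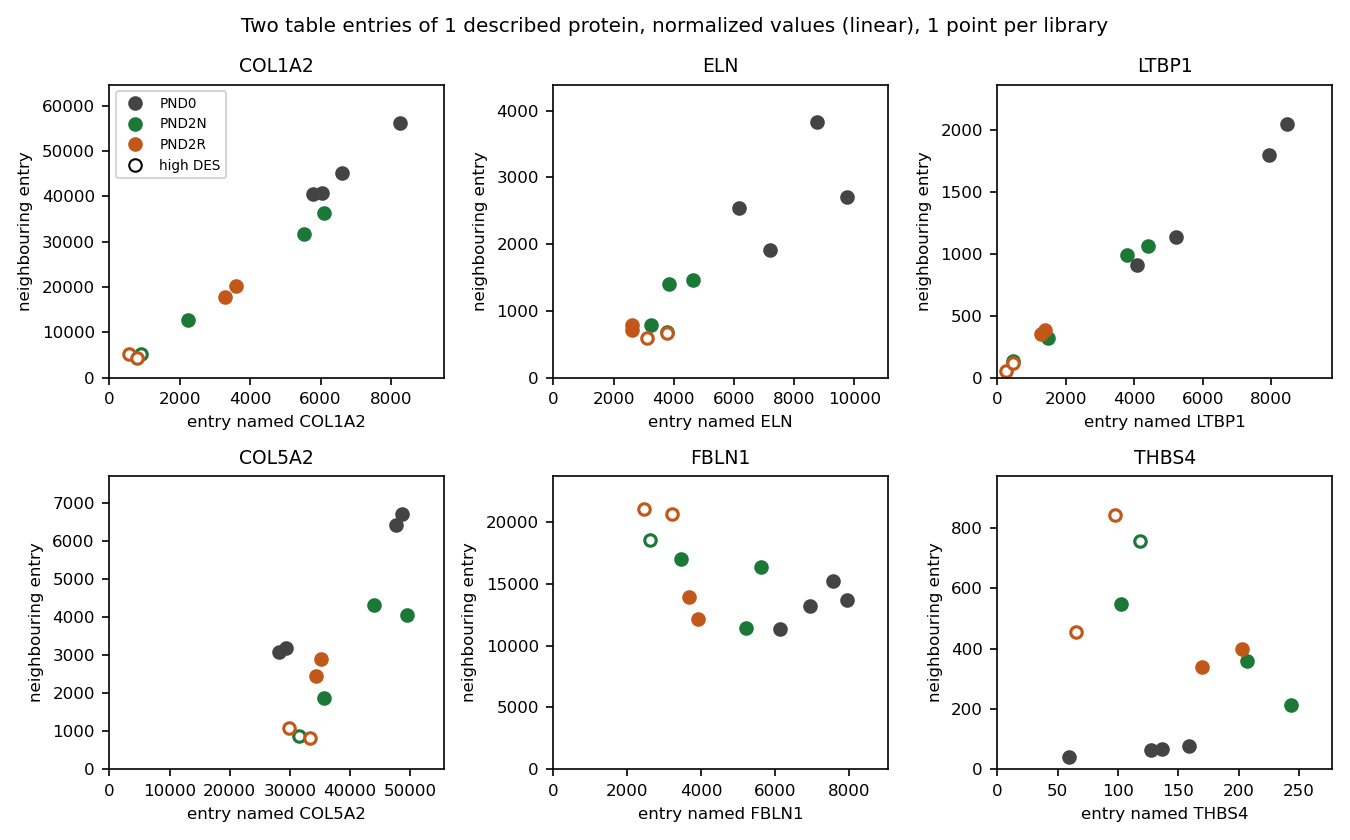
For 6 genes, the value of the named entry (x axis, linear) and of a neighbouring entry described as the same protein (y axis, linear), with 1 point per library and open points for the 3 day 2 libraries of high desmin. The points of COL1A2 and LTBP1 run along 1 line, while those of FBLN1 and THBS4 do not.

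Other genes of matrix building were read from lists chosen with earlier results known. Of 20 genes for collagen folding and modification, 2 fell in PND2R and at day 2, and none was called in PND2N, against 7.31%, 8.49% and 1.41% of all genes called lower; their median change in PND2R was -0.23, against -0.06 over all genes. They were P4HA1, a subunit of prolyl 4-hydroxylase, and PLOD2, a lysyl hydroxylase. P4HA1 was at 4057, 4226, 5361 and 4745 in PND0, 1978, 2948, 3884 and 1928 in PND2N and 2318, 2103, 2092 and 2237 in PND2R, below all newborn values in every day 2 library, and fell by 1.06 ± 0.21 (adjusted p = 0.0125) in PND2R. PLOD2 fell by 0.68 ± 0.21 (adjusted p = 0.0489) there. Of 31 other matrix proteins of stroma tested, 1 rose in PND2N, and in PND2R 2 rose and 1 fell. All genes gave 1.91% higher in PND2N, and 7.70% higher and 7.31% lower in PND2R. MGP, which inhibits calcification, was at 6790.0, 3742, 5241 and 5111 in PND0, 12012, 8347, 8220.3 and 10609 in PND2N and 7605, 11032, 11924 and 8811 in PND2R. Every day 2 value lay above all newborn ones, and it rose by 0.92 ± 0.21 (adjusted p = 0.0392) in PND2N and 0.92 ± 0.21 (adjusted p = 0.0188) in PND2R. Keratocan (KERA), a leucine-rich proteoglycan, was at 1956, 3219, 4093 and 4311 in PND0, 5025, 11185, 6296 and 5069.7 in PND2N and 14978, 7446, 3814 and 12405 in PND2R and rose by 1.39 ± 0.42 (adjusted p = 0.0447) in PND2R, with PND2R 3 inside the newborn range. NOV, a CCN family matricellular protein, fell by 1.46 ± 0.41 (adjusted p = 0.0350) in PND2R. CCN2, of the same family, fell by 0.99 ± 0.28 (adjusted p = 0.0318) at day 2.

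Of 25 genes for hyaluronan and glycosaminoglycan synthesis, 1 fell in PND2N and 4 in PND2R, and none rose, against 1.41% and 7.31% of all genes lower. XYLT1, which starts the sugar chains of proteoglycans, was at 109, 104, 99.4 and 137 in PND0, 7.26, 36.3, 40.6 and 18.4 in PND2N and 27.6, 6.99, 6.60 and 15.3 in PND2R. No day 2 library reached the newborn range, and it fell by 2.33 ± 0.56 (adjusted p = 0.0460) in PND2N and fell by 3.12 ± 0.56 (adjusted p = 0.00948) in PND2R. CD44, the hyaluronan receptor, fell by 1.30 ± 0.35 (adjusted p = 0.0313) in PND2R, as did CHPF2 by 0.61 ± 0.17 (adjusted p = 0.0342) and CSGALNACT2 by 0.72 ± 0.22 (adjusted p = 0.0459), both enzymes of chondroitin chains. HAS1, a hyaluronan synthase, fell by 1.32 ± 0.34 (adjusted p = 0.0248) at day 2. Of 10 TGF beta ligands and receptors, TGFBR3 fell by 2.89 ± 0.90 (adjusted p = 0.0495) in PND2R and TGFB3 at day 2 by 0.54 ± 0.16 (adjusted p = 0.0398). That list had 1 fall in PND2R and 2 at day 2, where 7.31% and 8.49% of all genes were lower. TGFBR3 was at 988, 915, 1159 and 1639 in PND0, 47.4, 642, 636 and 309 in PND2N and 454, 43.2, 65.4 and 423 in PND2R, lowest in PND2N 1, PND2R 2 and PND2R 3. Of 10 receptors that bind or take up collagen, none was called in PND2N or PND2R. At day 2 ITGA10, a collagen-binding integrin chain, fell by 0.77 ± 0.22 (adjusted p = 0.0362), where 8.49% of all genes were lower.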

How the data were processed

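RNA from the uteri of 12 gilts, 4 per group, was made into libraries with a kit for messenger RNA, per the labels' protocols. Bcl2fastq and the build Sscrofa10.2 are named in the submitters' processing notes, and no source used here gives the aligner, the counter, the use of strand or the normalization. The deposited table holds 1 signal value per gene and library, normalized by the authors on a linear scale. Low values were whole multiples of 1 step for only 42.5% to 60.0% of entries (within 0.02 steps), so no count test was run. Replicate numbers follow accession order and pair no animals.

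Values were taken as log2(value + 1). Genes above 1 in at least 4 of the 12 libraries were tested (16862 of 20390) together by limma 3.58.1 under R 4.3.3 (statmod 1.5.0), using an empirical Bayes prior that was trended and robust, and no covariate. Each day 2 group was set against PND0, PND2N was set against PND2R, and the mean of both day 2 groups was set against PND0, all two-sided. P-values were adjusted by Benjamini-Hochberg across the 16862 genes and called under 0.05. The fit was tested on simulated data. The alternatives tried were 0.1 or 5 in place of the added 1, a filter at 10 or none, TMM (trims 0.3 and 0.05) and quantile scaling, only the groups compared, plain empirical Bayes, library quality weights (the iteration of which stopped before its tolerance), each library left out, and the 3 libraries of high desmin left out; leaving out the 2 newborn libraries of low keratin was chosen after seeing the data. Summaries and plots used Python 3.11.15, pandas 2.3.3, numpy 2.4.6 and matplotlib 3.10.9.

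The genes, lists and alternatives were chosen with earlier results of these data known. Named are every gene past the threshold in at least 1 contrast and, per role, the 3 of the 52 with the highest mean log2 value (41 genes), and for each pathway list up to 4 of the smallest p in an F test of the groups. A further 20 genes were chosen after their values were seen: COL3A1, COL9A1, COL10A1, COL11A1, COL6A6, COL26A1, TNC, PCOLCE, CTHRC1, THBS2, THBS4, LUM, FMOD, FBLN5, MFAP2, EMILIN3, LTBP2, ADAMTS5, ADAMTS8 and ADAMTS10; so were the second entries of split genes.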

Additional observations from a re-analysis of the deposited data

Results flagged for a closer look

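In groups of 4 libraries, 1 library lay far from the other 3 (Dixon's test of the gap over the range, at its 95% critical value) in 6 of 123 groups of the genes named by rule, where chance gives about 1 in 20. The genes described after their values were seen gave 8 more, a number that cannot be set against chance: those of PCOLCE, MFAP2, FMOD, COL10A1, TNC, COL9A1 and LUM. PND2N 1, a library of high desmin, was highest of its group in PCOLCE at 18307 (the others 7226 to 8976), MFAP2 at 11375 (5567 to 6243), LOXL1 at 3117 (1219 to 1523) and FMOD at 12607 (9560 to 10000). PND2N 3 stood apart in COL8A1 at 293 (43.1 to 82.9), in LTBP3 at 10891 (12632 to 12962) and in MFAP1 at 3971 (3866 to 3878). It was also flagged in COL10A1 at 1.18 with the others at 1. In the replacer-fed group TNC was at 5976 in PND2R 2 (342 to 381), and PND2R 3 had COL9A1 at 612 (313 to 350) and ADAMTS1 at 2773 (3233 to 3308). Among the newborn, PND0 1 was lowest in EMILIN1 at 15904 (23575 to 24076.5) and in LUM at 20110.5 (32441.5 to 33825), and PND0 4 alone had COL10A1 above 1, at 6.34. With the others at the lowest value, any COL10A1 value above 1 would be flagged, so its flags do not show that a library stood apart.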

How the results depend on the processing

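The falls of ELN in PND2R and at day 2 passed in every alternative run, as did those of COL2A1 and FBLN2 in PND2R and FBLN1 at day 2. The count of the 52 genes in PND2N versus PND0, 1 as reported, was 0 with an added value of 0.1, without a filter, with only the groups compared, with plain empirical Bayes, and without either the 3 libraries of high desmin or the 2 newborn libraries of low keratin, and 2 with library quality weights; it ran from 0 to 2 with 1 library left out. In PND2R versus PND0 the 10 became 6 without a filter and 2 without either set of libraries, and 2 to 15 with 1 library left out. In PND2N versus PND2R it was 0 throughout. At day 2 the 11 became 7 without a filter, 4 without the libraries of high desmin and 2 without the 2 newborn ones, and 3 to 13 with 1 library left out. FBN2 at day 2 turned from -0.10 to 0.91 without the 2 newborn libraries. Apart from fits with 1 library left out, 2381 gene results were the same. Of the others, 75 lost and 13 gained a call, 130 without a call moved, and 1 reversed. The same means a call kept with its direction, or no call in either fit and a change within 1 SE of the main one. Most of these results had no call to keep, and a change of sign without a call was not counted as reversed. Of the PND2R calls, those of ADAMTS15, ADAMTS19, COL6A5 and THBS1 were lost without a filter, ADAMTS16 and ADAMTS19 with only the groups compared, ADAMTS19 and THBS1 with library quality weights, ADAMTS16 with quantile scaling and ADAMTS15 with plain empirical Bayes. Of the day 2 calls, those of ADAMTS19, COL17A1, COL7A1 and THBS1 were lost without a filter, and ADAMTS16, COL2A1 and SPARC with quantile scaling. ADAMTS19, SPARC and THBS1 were lost both with plain empirical Bayes and with library quality weights, and LTBP3 with plain empirical Bayes. The day 2 fall of SPARC held in 4 of the 12 fits that each left out 1 library. The causes were not tested. No paired analysis was possible because replicate numbers follow accession order and the labels name no litter. With 4 animals a group, a gene that misses the threshold is not shown to be unchanged.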
